A study of Mus musculus with 8 samples.

Results

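The 10 genes described here encode the main enzymes that carry glucose to lactate in T cells: Hk2, Gpi1, Pfkp, Aldoa, Tpi1, Gapdh, Pgk1, Eno1, Pkm, and Ldha. They were taken by name from the 20170 genes of the deposited count matrix, 1 main isozyme for each of 10 steps of the pathway, and all 10 were found. The phosphoglycerate mutase step, which lies between Pgk1 and Eno1, is described with the minor isozymes.

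T cells were purified from spleens of WT mice and of mice that were Sdha fl/fl and carried CD4-Cre, called SDHA-KO. The mice used in the study were aged 8 to 12 weeks. Sdha encodes the catalytic subunit of succinate dehydrogenase, an enzyme of the TCA cycle and complex II of the respiratory chain. In SDHA-KO mice the Cd4 promoter drives Cre, which is active in the thymocytes that give rise to both CD4 and CD8 αβ T cells. The WT cells that were sequenced came from C57BL/6 mice. Cells of each genotype were cultured alone (unstimulated) or for 48 hours with soluble antibodies to CD3 (5 μg/mL) and CD28 (2.5 μg/mL) (stimulated), and dead cells were removed before droplet-based 3′ single-cell RNA sequencing. The 4 groups had 2 libraries each. The labels do not state whether 2 replicates of a group came from separate mice, so the p-values below measure only the spread between these libraries, which may be technical.

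Glycolysis splits glucose into pyruvate, with a small yield of ATP and NADH, and lactate dehydrogenase then regenerates NAD by reducing pyruvate to lactate. Resting T cells use little glucose, whereas T cells activated through the antigen receptor and CD28 raise glucose uptake and lactate output and make more of most glycolytic enzymes. Activated T cells are known to place many of these genes under the transcription factors Myc, which binds the E-box CACGTG, and HIF-1, whose binding core is ACGTG or GCGTG.

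To place the members on the genome, the loci were read from the GENCODE annotation of the mm10 build. Of the members, 3 lie on chromosome 6, Hk2 at chr6:82725025-82774454, Tpi1 at chr6:124810586-124814296, and Gapdh at chr6:125161715-125166467, all on the minus strand. Another 3 lie on chromosome 7, Gpi1 at chr7:34201330-34230336 (minus), Ldha at chr7:46841475-46855627 (plus), and Aldoa at chr7:126795234-126800751 (minus). The remaining members are Pfkp at chr13:6579768-6648777 (minus), Pgk1 at chrX:106187100-106203699 (plus), Eno1 at chr4:150236721-150248879 (plus), and Pkm at chr9:59656368-59679375 (plus). A 3′ read of Gapdh, Eno1, or another member with processed copies in the mouse genome can match a copy as well, and how such reads were assigned was not stated, so that the levels of these genes carry that uncertainty.

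The 250 bases upstream of the RefSeq start site are shown for 5 members, because 4 of them (Hk2, Pfkp, Pgk1, and Eno1) had the largest decreases in stimulated CD4 SDHA-KO cells and the fifth, Ldha, the smallest. Sequences are RefSeq, build GRCm38.p6, written 5′ to 3′ on the strand of the gene, and capitals mark ACGTG or GCGTG on either strand (read as CACGT or CACGC on the other strand). The windows are chr6:82774455-82774704 (minus) for Hk2, chr13:6648772-6649021 (minus) for Pfkp, chrX:106186850-106187099 (plus) for Pgk1, chr4:150236458-150236707 (plus) for Eno1, and chr7:46845554-46845803 (plus) for Ldha.
Hk2: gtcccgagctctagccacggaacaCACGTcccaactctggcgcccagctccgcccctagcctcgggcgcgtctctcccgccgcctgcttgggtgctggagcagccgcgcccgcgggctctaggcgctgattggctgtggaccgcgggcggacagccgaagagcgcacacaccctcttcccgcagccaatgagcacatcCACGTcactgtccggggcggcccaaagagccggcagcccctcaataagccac
Pfkp: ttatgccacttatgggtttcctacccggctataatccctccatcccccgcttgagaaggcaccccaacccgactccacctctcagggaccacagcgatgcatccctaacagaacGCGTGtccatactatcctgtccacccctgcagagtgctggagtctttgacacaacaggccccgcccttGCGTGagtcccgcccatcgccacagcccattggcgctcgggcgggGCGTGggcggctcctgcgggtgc
Pgk1: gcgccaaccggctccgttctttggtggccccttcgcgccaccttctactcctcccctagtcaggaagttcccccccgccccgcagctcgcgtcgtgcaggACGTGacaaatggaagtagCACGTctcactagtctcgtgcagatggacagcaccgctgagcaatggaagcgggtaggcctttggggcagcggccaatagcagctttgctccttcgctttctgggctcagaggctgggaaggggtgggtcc
Eno1: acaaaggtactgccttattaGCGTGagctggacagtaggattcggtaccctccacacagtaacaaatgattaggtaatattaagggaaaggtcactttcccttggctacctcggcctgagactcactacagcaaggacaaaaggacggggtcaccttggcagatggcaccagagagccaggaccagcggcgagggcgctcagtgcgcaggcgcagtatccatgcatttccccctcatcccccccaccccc
Ldha: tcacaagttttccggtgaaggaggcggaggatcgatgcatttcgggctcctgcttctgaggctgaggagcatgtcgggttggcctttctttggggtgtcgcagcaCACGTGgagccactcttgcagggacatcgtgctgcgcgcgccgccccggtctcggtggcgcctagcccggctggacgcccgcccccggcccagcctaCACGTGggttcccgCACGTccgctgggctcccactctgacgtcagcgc
The Hk2 and Pgk1 windows each held 2 matches to ACGTG, the Pfkp window 3 matches to GCGTG, and the Eno1 window 1 match to GCGTG. The Ldha window held 5 matches to ACGTG when both strands were read, 4 of which make up 2 copies of the palindrome CACGTG. Over all 10 members, 3 windows held ACGTG, 3 held GCGTG, and 1 held CACGTG, and either of the first 2 motifs was found in 6. In 27025 mouse promoters of the same length, ACGTG was present in 16.5%, GCGTG in 28.3%, CACGTG in 6.04%, and ACGTG or GCGTG in 38.6%. These matches describe the letters in these windows only. Eno1 and Ldha have 3 and 2 listed start sites, of which the farthest upstream was used.

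The 8 libraries held 1395 to 1801 cells, and 10947009 to 14883158 UMIs in the unstimulated libraries against 46201110 to 51398728 in the stimulated. Of 12823 distinct barcodes, 23 occurred in more than 1 library. UMIs were summed per library over the cells that the authors classed as CD4 or CD8, and levels are given as CPM (UMIs of a gene over all UMIs of the sum, times 1e+06) after TMM scaling, except that marker genes and levels within Subtypes are given as CPM of the plain UMI total. Because fewer cells expressing a gene and less RNA per cell give the same sum, these cannot be told apart in a summed level. In CD4 cells Sdha stood at 101 and 100.1 CPM in unstimulated WT, 49.8 and 49.4 in unstimulated SDHA-KO, 74 and 73.1 in stimulated WT, and 26.5 and 26.4 in stimulated SDHA-KO, and in CD8 cells at 91.4 and 95.7 in unstimulated WT, 39.0 and 37.6 in unstimulated SDHA-KO, 76.2 and 74.9 in stimulated WT, and 53.3 and 50.4 in stimulated SDHA-KO. In those stimulated cells of the CD8 class that had a Cd8a or Cd8b1 UMI and no Cd4 or Trdc UMI, Sdha stood at 76.2 and 74.3 CPM in WT and 29.1 and 26.9 in SDHA-KO. A 3′ tag can be read from a transcript that lacks an internal exon, so these values check the labels only in part. Cell make-up differed between genotypes: after stimulation, 59.1% and 56.1% of the cells in the CD8 class of the SDHA-KO libraries had a UMI of Trdc, the γδ T cell receptor constant gene, against 3.67% and 4.92% in WT, at a median of 30662 and 29912 UMIs per cell against 13151.5 and 13265. In the stimulated CD4 class these shares were 10.1% and 8.64% in SDHA-KO and 1.98% and 3.21% in WT. Cells with under 10% mitochondrial UMIs (percent.mt) made up 39.1% and 41.0% of stimulated WT CD4 cells and 86.9% and 90.0% of stimulated SDHA-KO CD4 cells. In the CD8 class they made up 24.3% and 29.3% in WT and 65.0% and 64.1% in SDHA-KO, and in all unstimulated libraries at least 99.8%. Results after stimulation are therefore given for all cells and for these cells alone.

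Stimulation of WT T cells raised all 10 members in CD4 cells and all 10 in CD8 cells. The 10 genes together took up 0.131% and 0.124% of all CD4 UMIs in unstimulated WT libraries and 1.27% and 1.33% after stimulation. In CD8 cells the share was 0.110% and 0.105% before and 1.07% and 1.19% after. For each member the 2 stimulated libraries lay above the 2 unstimulated ones, as they did for 45.7% of all genes tested in either class. The test was edgeR's quasi-likelihood test on the sums of all 8 libraries with Benjamini-Hochberg adjustment over all genes tested, called at an adjusted p under 0.05. It called 36.2% of all 14264 genes tested higher in CD4 cells and 35.5% of 13095 in CD8 cells, so that being called is common in this comparison. The median log2 fold change of the members was 2.91 in CD4 and 2.97 in CD8 cells, whereas that of all genes tested was near 0.

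Along the pathway, hexokinase 2, which phosphorylates glucose on entry, started from almost no RNA. Hk2 stood at 2.08 and 3.75 CPM in unstimulated WT CD4 cells and at 182 and 179 after stimulation, a log2 fold change of 5.94 ± 0.20 (SE). In CD8 cells it went from 4.57 and 4.91 CPM to 206 and 199, a log2 fold change of 5.41. Tpi1, triose phosphate isomerase, showed the next largest rise, from 19.7 and 20.2 to 857 and 943 CPM in CD4 cells, a log2 fold change of 5.49 ± 0.14 (SE). Gpi1, glucose-6-phosphate isomerase, rose least, from 141 and 145 to 373 and 393 CPM, a log2 fold change of 1.42 ± 0.09 (SE). The other 7 members rose by 2.34 (Eno1) to 3.89 (Pgk1) on the log2 scale in CD4 cells and by 2.35 (Eno1) to 3.28 (Pgk1) in CD8 cells. Gapdh, which reduces NAD while oxidising glyceraldehyde 3-phosphate, rose from 379 and 372 CPM to 4053 and 4393 in CD4 cells. Hk2, Tpi1, and Gpi1 kept the same places in the order in CD8 cells, where Tpi1 rose by 4.89 and Gpi1 by 1.11.

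**Figure D1:**
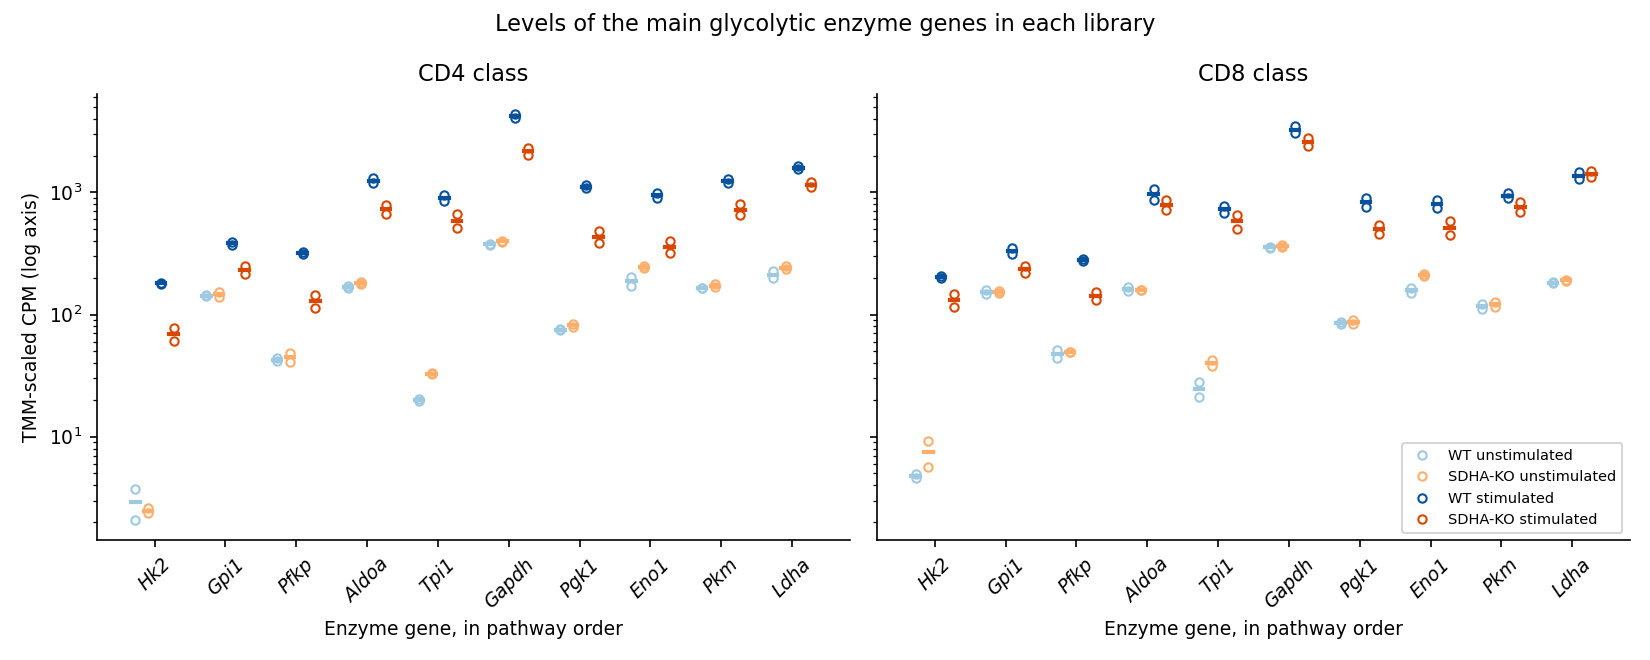
Levels of the 10 enzymes in pathway order, in TMM-scaled CPM on a log axis, with 1 point per library in the CD4 and CD8 classes of the 4 groups. All stimulated libraries lie above the unstimulated libraries of the same genotype, and the stimulated SDHA-KO points lie below the stimulated WT points in CD4 cells for every member.

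SDHA-KO cells also raised all 10 members after stimulation, against 36.6% of all genes called higher in CD4 and 37.2% in CD8 cells. Both stimulated libraries lay above both unstimulated ones for every member, and for 43.9% of all genes in CD4 and 45.7% in CD8 cells. In CD4 cells the rise was 4.79 on the log2 scale for Hk2 (2.61 and 2.36 CPM to 77.7 and 60.1) and 4.16 for Tpi1 (33.3 and 32.4 CPM to 663 and 512). It was smallest for Eno1, enolase 1, at 0.54 ± 0.11 (SE), from 249 and 241 CPM to 398 and 317, and for Gpi1 at 0.67. The median over the members was 2.16 in CD4 and 2.60 in CD8 cells. In CD8 cells Eno1 rose by 1.30, from 205 and 213 CPM to 581 and 447, and Gpi1 again by least, 0.61. The WT and SDHA-KO responses share no library, and their difference is tested below.

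Before stimulation no member was called between SDHA-KO and WT, in CD4 or in CD8 cells, where 1.1% and 0.947% of all genes tested were called in either direction. At an unadjusted p under 0.05 in the same edgeR fit, 3 members in CD4 and 2 in CD8 cells would pass, DESeq2 called 2 and 1, and limma 1 and 2. The members nearest to the threshold were Tpi1 and Eno1, both at higher values in SDHA-KO. Tpi1 stood at 19.7 and 20.2 CPM in WT and 33.3 and 32.4 in SDHA-KO CD4 cells, a log2 fold change of 0.72 ± 0.16 (SE, adjusted p = 0.0571 by edgeR). In CD8 cells its levels were 28.3 and 21.2 CPM in WT and 38.1 and 42.6 in SDHA-KO, also 0.72 on the log2 scale (adjusted p = 0.143 by edgeR). Neither class had overlapping groups for Tpi1. Eno1 stood at 201 and 173 CPM in WT and 249 and 241 in SDHA-KO CD4 cells (0.39 on the log2 scale, edgeR adjusted p = 0.13), and at 166 and 151 against 205 and 213 in CD8 cells (0.40, edgeR adjusted p = 0.194). For both genes the call depended on the test and the filter: with DESeq2 Tpi1 was called in both classes and Eno1 in CD4 cells, and with only the 4 unstimulated libraries in the fit both were called in both classes. The other 8 members differed by -0.25 (Hk2) to 0.19 (Ldha) in CD4 cells and by -0.02 (Aldoa) to 0.65 (Hk2) in CD8 cells. For Hk2 the standard error was 0.37 in CD4 and 0.38 in CD8 cells at these low counts, which leaves a wide interval. Groups did not overlap for 7 members in CD4 and 4 in CD8 cells, and for 45.7% and 42.7% of all genes tested, so that the CD8 count was near the background. In cells with percent.mt under 10 edgeR called no member either, beside 1.13% of all genes in CD4 and 1.32% in CD8 cells. The CD4 class itself differed before stimulation: Cd4 stood at 155 and 155 CPM in WT and 549.6 and 631 in SDHA-KO, and cells with a Cd4 UMI and no Cd8a, Cd8b1, or Trdc UMI made up 55.8% and 56.8% of the class in WT and 82.1% and 79.2% in SDHA-KO. Within those cells Tpi1 was called higher (0.80, edgeR adjusted p = 0.0485), the 1 call made there, where 0.376% of all genes were called higher.

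After stimulation all 10 members were lower in SDHA-KO than in WT CD4 cells, the groups overlapped for none, and 20.5% of all genes tested were called lower. In 36.9% of all genes both SDHA-KO libraries lay below both WT libraries. The median log2 fold change of the members was -0.87, beside -0.00 for all genes tested. With limma on the mean of CPM per cell, which weights each cell equally, the median was -0.41 and 8 members were called, while Tpi1 was at -0.22 (limma adjusted p = 0.0897) and Ldha at -0.11 (limma adjusted p = 0.300). At the first step, Hk2 stood at 182 and 179 CPM in WT and 77.7 and 60.1 in SDHA-KO, and fell by 1.39 ± 0.11 on the log2 scale (SE, edgeR adjusted p = 6.4e-06). Gpi1 stood at 373 and 393 CPM in WT and 250.5 and 214 in SDHA-KO, and fell by 0.72. Pfkp, the platelet-type phosphofructokinase that commits sugar to glycolysis, stood at 325 and 314 CPM in WT and 145 and 113 in SDHA-KO, and fell by 1.31 ± 0.11 (SE). The values of the 2 ATP-consuming kinases lay further from 0 than that of the isomerase between them, a difference between genes that was not tested.

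In the splitting of the hexose, Aldoa, aldolase A, stood at 1181 and 1318 CPM in WT and 791 and 663 in SDHA-KO CD4 cells, and fell by 0.78. Tpi1 stood at 857 and 943 CPM in WT and 663 and 512 in SDHA-KO, and fell by 0.62 ± 0.11 (SE, edgeR adjusted p = 0.000853). In the lower pathway, Gapdh stood at 4053 and 4393 CPM in WT and 2285 and 2034 in SDHA-KO, and fell by 0.97. Pgk1, phosphoglycerate kinase, which makes the first ATP of the pathway, stood at 1079 and 1151 CPM in WT and 481 and 385 in SDHA-KO, and fell by 1.37 ± 0.10 (SE).

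Eno1 stood at 902 and 989 CPM in WT and 398 and 317 in SDHA-KO CD4 cells, and fell by 1.40 ± 0.11 on the log2 scale (SE), which made the SDHA-KO level 2.65-fold lower. Pkm, pyruvate kinase, stood at 1201 and 1282 CPM in WT and 795 and 649.7 in SDHA-KO, and fell by 0.78. The 3′ counts do not separate its M1 and M2 forms. Ldha, lactate dehydrogenase A, stood at 1539.9 and 1635 CPM in WT and 1204 and 1107 in SDHA-KO, and fell by 0.46 ± 0.08 (SE, edgeR adjusted p = 0.00111), 1.37-fold. Hk2, Pfkp, Pgk1, and Eno1 formed the group with a decrease over 1.3, Gapdh lay between, and the other 5 members fell by 0.46 to 0.78. In every member SDHA-KO replicate 1 lay above replicate 2, in both classes.

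**Figure D2:**
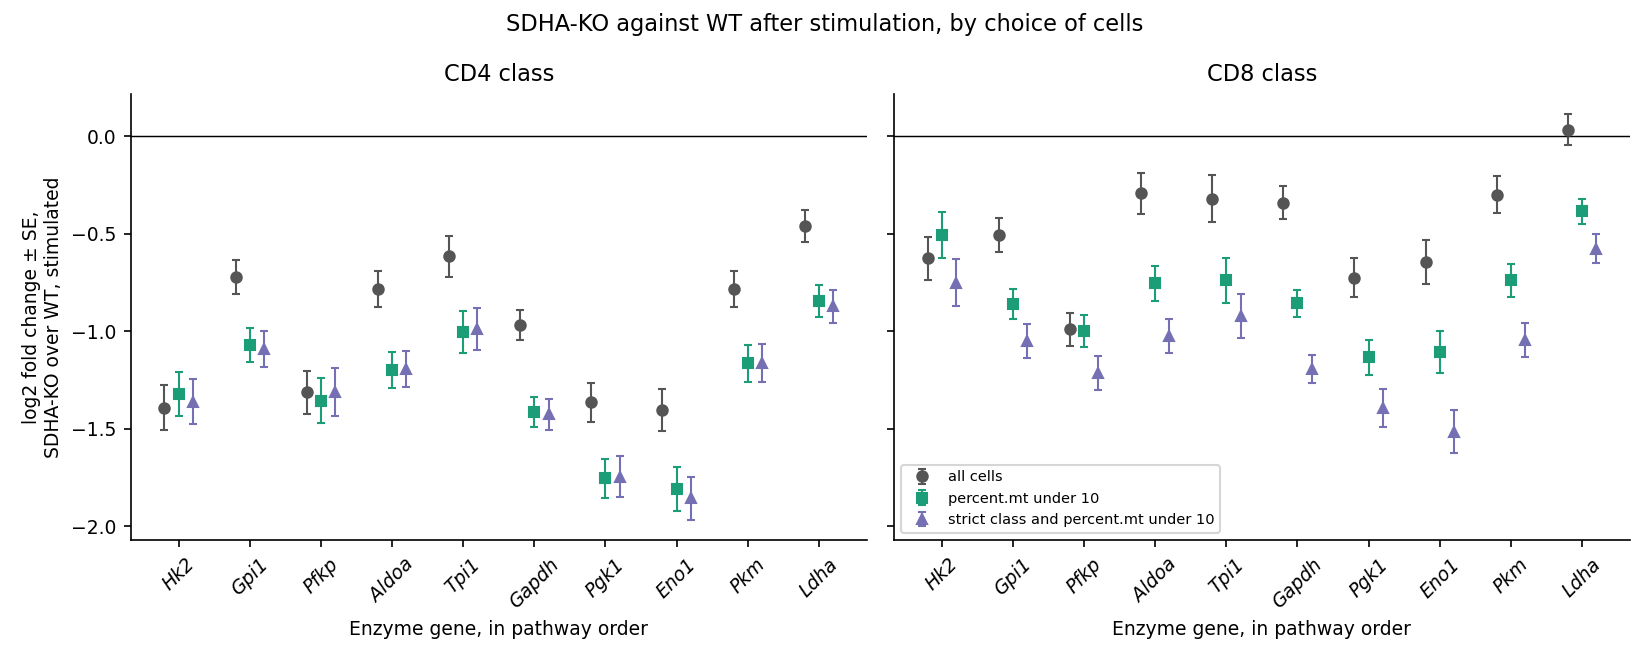
Log2 fold change of SDHA-KO against WT after stimulation for each enzyme in pathway order in CD4 and CD8 cells. Points are for all cells, cells with percent.mt under 10, and strict cells (defined below) with percent.mt under 10. Bars give the standard error derived from the F statistic of edgeR's test. Over all cells, CD4 values lie from -1.40 for Eno1 to -0.46 for Ldha.

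In stimulated CD8 cells 9 of 10 members were lower in SDHA-KO, where 23.5% of all genes tested were called lower, and the exception was Ldha. Pfkp fell most, from 276 and 286 CPM in WT to 152 and 130.2 in SDHA-KO, by 0.99 ± 0.08 on the log2 scale (SE, edgeR adjusted p = 5.42e-06). Pgk1 stood at 754 and 899 CPM in WT and 545 and 454 in SDHA-KO (-0.73), Eno1 at 745 and 863 against 581 and 447 (-0.64), and Hk2 at 206 and 199 against 148 and 114 (-0.62). Gpi1 stood at 312 and 352 CPM against 249.9 and 217 (-0.51). For all 9 called members both SDHA-KO libraries lay below both WT libraries, as they did for 38.5% of all genes tested.

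The decreases of the other 4 called members in CD8 cells were smaller. Gapdh stood at 3044 and 3479 CPM in WT and 2767 and 2385 in SDHA-KO (-0.34, edgeR adjusted p = 0.0065), and Pkm at 893 and 990.2 against 836 and 693 (-0.30, edgeR adjusted p = 0.0213). Aldoa stood at 874 and 1057 CPM against 864 and 711 (-0.29, edgeR adjusted p = 0.037), and Tpi1 at 675 and 774 against 656 and 504 (-0.32, edgeR adjusted p = 0.0462). The higher SDHA-KO library lay within 20 CPM of the lower WT library for Aldoa and Tpi1. With limma on the mean of CPM per cell, Gapdh (-0.07), Aldoa (-0.12), Pkm (-0.15), and Tpi1 (-0.21) were not called. Tpi1 was not called with DESeq2 (-0.32) either, nor were Aldoa, Tpi1, and Pkm with only the 4 stimulated libraries in the fit. Ldha stood at 1281 and 1464 CPM in WT and 1488 and 1324 in SDHA-KO, groups that overlap, a difference of 0.03 ± 0.08 (SE, edgeR adjusted p = 0.749). Without SDHA-KO replicate 2 the number of members called fell to 5, and Aldoa, Tpi1, Gapdh, and Pkm were not called. Without stimulated WT replicate 2 it was 6, and Aldoa, Tpi1, and Pkm were not called.

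The stimulated classes differed in make-up between genotypes, and the part of this in the results was not tested. In the CD8 class, Subtype Tem1 made up 26.6% and 28.0% of SDHA-KO and 1.90% and 1.92% of WT cells, and Tcm1 3.91% and 3.54% against 23.0% and 20.5%. In the CD4 class, Tem5 made up 32.5% and 29.2% of SDHA-KO and 5.47% and 6.51% of WT cells, and Tcm2 7.74% and 5.61% against 21.4% and 23.6%. The γδ list (Trdc, Tcrg-C1, Tcrg-C2, Tcrg-C4, and Trdv4, all 5 in the file) summed to 252.6 and 259.3 CPM in stimulated SDHA-KO CD8 cells and 17.6 and 20.7 in WT, with Trdv4 near 0 in both. The B cell list of 6 markers summed to 344.6 and 64.1 CPM in SDHA-KO and 53.7 and 50.0 in WT, with Igkc at 227 CPM in SDHA-KO replicate 1 and at 2.26 in replicate 2. Myeloid markers (6 of 6 genes) summed to 144 and 140.1 CPM in SDHA-KO against 89.4 and 88.7 in WT CD8 cells, and to 150.3 and 163 against 86.0 and 80.5 in CD4 cells, nearly all of it Cst3 (139 and 134 CPM against 87.0 and 85.2 in CD8 cells), with Lyz2 at 0 in all stimulated libraries. Of naive T cell markers, Ccr7 stood at 139 and 183 CPM in SDHA-KO and 269 and 280 in WT CD8 cells, and at 398 and 488 against 345 and 351 in CD4 cells. Lef1 stood at 129 and 129 CPM against 191 and 175 in CD8 cells, and at 264 and 290 against 303 and 301 in CD4 cells, and Tcf7 at 44.4 and 48.0 against 50.8 and 42.0 in CD8 and at 105 and 93.8 against 54.1 and 57.1 in CD4 cells. The activation list (Il2ra, Cd69, Tfrc, and Mki67) summed to 859 and 744 CPM in SDHA-KO and 927 and 916 in WT CD4 cells, with Tfrc at 138 and 129 against 249 and 245, and to 1059 and 852 against 1073 and 1065 in CD8 cells. The T cell list (6 genes) summed to 3031 and 3061 CPM in SDHA-KO and 2226 and 2236 in WT CD4 cells, and to 2377 and 2705 against 2370 and 2368 in CD8 cells, while NK markers (3 genes) stayed at or below 11.2 CPM and erythroid markers (4 genes) at or below 1.53 in stimulated libraries. Cells with a Cd8a or Cd8b1 UMI and no Cd4 or Trdc UMI, called strict CD8 cells here, made up 33.1% and 37.1% of the SDHA-KO class and 87.2% and 85.0% of the WT class. In strict CD8 cells the same 9 members were lower (24.4% of all genes called lower), with a larger median of -0.64, from -1.24 for Pfkp to -0.44 for Tpi1. Ldha was at -0.12 in strict CD8 cells (edgeR adjusted p = 0.28). Strict CD4 cells (a Cd4 UMI and no Cd8a, Cd8b1, or Trdc UMI) gave 10 lower members (19.8% of all genes called lower), from -1.47 for Hk2 to -0.45 for Ldha.

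Whether the SDHA-KO effect changed with stimulation was tested as an interaction, which was called lower for 9 members in CD4 cells, where 10.5% of all genes tested were called lower. It was largest for Eno1 (-1.80 ± 0.16, SE), followed by Pgk1 (-1.49), Pfkp (-1.38), and Tpi1 (-1.33), and smallest for Ldha (-0.65). Hk2 was at -1.14 ± 0.38 (SE, edgeR adjusted p = 0.0561), with the error set by its few unstimulated UMIs. In CD8 cells 6 members were called lower (10.2% of all genes): Hk2 (-1.27), Eno1 (-1.05), Tpi1 (-1.04), Pfkp (-1.04), Pgk1 (-0.75), and Gpi1 (-0.50). Gapdh was at -0.38 (edgeR adjusted p = 0.05004), Pkm at -0.36, Aldoa at -0.27, and Ldha at -0.04 ± 0.12 (SE). In cells with percent.mt under 10, 9 members were called in CD8 cells, where 5.99% of all genes were called lower, with Gapdh at -0.90, Pkm at -0.80, Aldoa at -0.74, and Ldha at -0.47, while Hk2 was at -1.16 (edgeR adjusted p = 0.089). In CD4 cells under that limit 9 members were again called (8.02% of all genes), from -2.20 (Eno1) to -1.04 (Ldha), and Hk2 was at -1.08 (edgeR adjusted p = 0.0664). The CD4 median of -1.10 over all cells was -0.66 with limma. Over all cells the CD8 count was 2 without unstimulated WT replicate 2 and 3 without unstimulated SDHA-KO replicate 2. The interaction is the stimulated effect minus the unstimulated one. By construction it is more negative than the stimulated effect for every member with a positive unstimulated value. Tpi1 and Eno1 had the 2 highest unstimulated SDHA-KO values relative to WT in CD4 cells.

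The stimulated SDHA-KO effect was tested between CD8 and CD4 cells of the same libraries, with the library as a block. It was less negative in CD8 cells for 9 members, where 11.9% of all genes tested were called higher. The differences were 0.75 ± 0.06 (SE) for Hk2, 0.74 for Eno1, 0.63 for Pgk1, 0.61 for Gapdh, 0.48 for Ldha, 0.48 for Aldoa, 0.47 for Pkm, 0.31 for Pfkp, and 0.28 for Tpi1. Gpi1 was at 0.20 ± 0.06 (SE, edgeR adjusted p = 0.053). In strict cells, where 5.32% of all genes were called higher, 5 members were called, Hk2, Gapdh, Pgk1, Eno1, and Ldha, and the median fell from 0.48 to 0.30. With limma over all cells the median was 0.28 and 7 members were called, without Aldoa and Tpi1. In stimulated WT cells, which are in the same fit, Hk2 was higher in CD8 than in CD4 cells by 0.22, and 8 members were lower, by 0.15 (Gpi1) to 0.38 (Pgk1), while Pfkp was at -0.13 (edgeR adjusted p = 0.104). There, 11% of all genes were called higher and 12.5% lower, and the number of members called fell from 9 to 3 without WT replicate 1, 5 without WT replicate 2, and 3 in cells with percent.mt under 10, where 9.47% of all genes were called lower. In strict cells with percent.mt under 10 the difference of the effects had a median of 0.19 and the same 5 members were called, beside 3.56% of all genes.

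Stimulated cells with percent.mt under 10 were richer in glycolytic RNA than the cells above that limit. In WT CD4 cells they held 863 and 893 UMIs of the 10 members per cell, against 57.6 and 60.6 in cells at or above 10. SDHA-KO CD4 cells held 217 and 192 below the limit and 24.5 and 18.6 above it. WT CD8 cells held 894 and 931 against 63.0 and 66.2, and SDHA-KO CD8 cells 508 and 425 against 43.3 and 33.8. Unstimulated libraries held 9.51 to 14.2 member UMIs per cell below the limit. As CPM of nuclear-gene UMIs, which takes the mitochondrial transcripts out of the total, the members summed to 15798 and 16407 below and 6017 and 6295 above the limit in WT CD4 cells, and to 8067 and 6820 below and 3919 and 2911 above it in SDHA-KO CD4 cells. The order of the genotypes was thus the same on both sides of the limit.

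Hk2 and Pfkp, both kinases of the upper pathway, had the opposite pattern to the other 8 members. In nuclear CPM, Hk2 stood at 161 and 155 below the limit and 407 and 397 above it in WT CD4 cells, and at 167 and 172 below and 461 and 434 above it in WT CD8 cells. In SDHA-KO cells Hk2 also stood higher above the limit, at 316 and 211 against 78.8 and 63.2 in CD4 and at 451 and 374 against 144 and 108 in CD8 cells. Pfkp stood at 332 and 309 below and 561 and 547 above the limit in WT CD4 cells, whereas Gapdh stood at 5724 and 5950.2 below and 1177 and 1301 above it. The groups of cells differ in depth, with medians of 59713.5 and 59710.5 UMIs per cell below and 10690 and 10633 above the limit in WT CD4 cells, and the part of depth in these values was not tested.

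**Figure D3:**
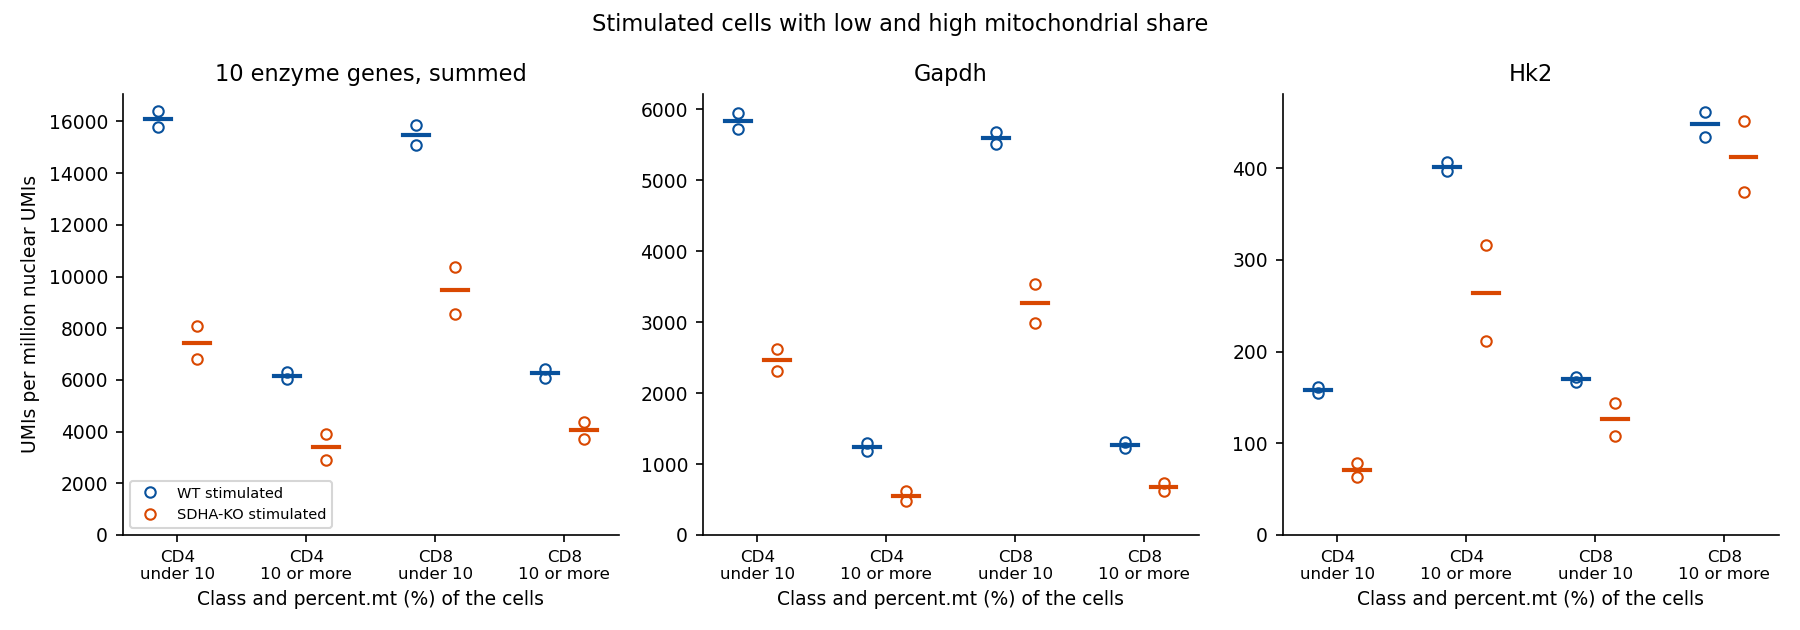
Levels in CPM of nuclear-gene UMIs in stimulated cells with percent.mt under 10 and with 10 or more, by class and genotype. Panels show the summed level of the 10 members, Gapdh, and Hk2, with 1 point per library on a linear axis. Hk2 lies higher in the cells with 10 or more. The summed level lies higher in the cells under 10, at 15798 and 16407 against 6017 and 6295 in WT CD4 cells.

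Among cells with percent.mt under 10, all 10 members were lower in stimulated SDHA-KO than in WT in both classes. In CD4 cells 16.7% of all genes tested were called lower, and the members' median was -1.26, from -1.81 (Eno1) to -0.84 (Ldha). Gapdh stood there at 5635 and 5975 CPM in WT and 2323 and 2029 in SDHA-KO, and Pgk1 at 1419 and 1487 against 482 and 379.8. In CD8 cells 17% of all genes were called lower, and the median was -0.81, from -1.13 (Pgk1) to -0.39 (Ldha). Ldha, which overlapped between genotypes over all CD8 cells, stood at 1871 and 1994 CPM in WT and 1567 and 1391 in SDHA-KO in these cells (edgeR adjusted p = 0.00113). With the strict classes as well, all 10 members were lower in CD8 cells (16.6% of all genes called lower), from -1.52 (Eno1) to -0.58 (Ldha). Gpi1 and Aldoa, with changes of -0.51 and -0.29 over all CD8 cells, were at -1.05 and -1.02 in these cells. In CD4 cells the strict classes under the limit gave 10 lower members (15.5% of all genes), from -1.86 (Eno1) to -0.87 (Ldha).

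The authors divided each class into Subtypes by marker genes: effector memory (Tem), central memory (Tcm), naive, and regulatory (Treg) clusters, annotated within each state. A Subtype was tested between genotypes where each of its 4 libraries had at least 20 cells. In stimulated WT libraries the Tcm Subtypes of CD4 cells had summed member levels of 4025 to 5914 CPM, and Tem1 to Tem5 14314 to 18419. In SDHA-KO libraries the same Subtypes stood at 2370 to 3476 and 6214 to 9759, so that Tem1 to Tem5 of SDHA-KO lay above the Tcm Subtypes of WT. No WT and SDHA-KO library overlapped within any of these CD4 Subtypes. Tem7 is not part of these ranges, and CD4 Tcm1 had only 6 and 10 cells in the SDHA-KO libraries.

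All 8 stimulated CD4 Subtypes tested had negative values for all 10 members. All 10 were called lower in Tcm2 (6.85% of all genes called lower), Tcm4 (7.83%), Tem1 (15.3%), Tem2 (12.8%), Tem3 (11.9%), and Tem5 (15.3%), and 9 in Tcm3 (8.95%), where Tpi1 was at -0.32. In Tem7 (4.76%) 3 members were called, Pfkp, Gapdh, and Pgk1. The median was most negative in Tem1 at -1.52, with Eno1 at -2.04 and Hk2 at -1.89, and least in Tem7 at -0.56. Ldha ranged from -0.96 in Tem1 to -0.14 in Tem7. Without 1 library the Tem7 count was 0 (WT replicate 1), 1 (WT replicate 2), 5 (SDHA-KO replicate 1), or 0 (SDHA-KO replicate 2), and each of the other 7 counts was 9 or 10. The Subtypes of one library are not independent samples, so these counts repeat the comparison in parts of the same 4 libraries.

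The 4 stimulated CD8 Subtypes tested showed fewer calls, with medians from -0.56 (Tem2) to -0.16 (Tcm2). Tcm1, Tcm5, Tem1, Tem3, and Tem6 of CD8 had too few cells in a library to be tested. Of these, Tem1 made up 26.6% and 28.0% of the SDHA-KO class and had 16 cells in each WT library. The smallest library sum held 26 cells in Tcm2 and 38 in Tcm3, and the part of cell numbers in the counts was not tested. In Tem2, 8 members were called lower (15.6% of all genes), from -0.89 for Pgk1 and -0.81 for Pfkp to -0.51 for Pkm, while Hk2 was at -0.29 and Ldha at -0.19. Its summed member level was 14771 and 15603 CPM in WT and 11655 and 9709 in SDHA-KO. In Tcm2 4 members were called lower (12.8%; Hk2, Pfkp, Pgk1, and Eno1), in Tcm3 3 (7.34%; Gpi1, Pfkp, and Pgk1), and in Tcm4 only Pfkp (3.3%). These counts moved when 1 library was left out. The Tcm4 count was 0 without either WT library, 9 without SDHA-KO replicate 1, and 3 without SDHA-KO replicate 2, and the Tcm3 count was 1 without either WT library. The Tcm2 count was 2 without either WT library, and 2 further members were called higher there without SDHA-KO replicate 2. With all libraries, Pfkp was called lower in all 12 stimulated Subtypes tested, from -1.81 to -0.81, and Ldha in none of the 4 CD8 Subtypes tested, where it lay between -0.19 and 0.26. With percent.mt under 10, the 4 CD4 Subtypes and 1 CD8 Subtype that had enough cells (Tem1, Tem2, Tem3, and Tem5 of CD4 and Tem2 of CD8) gave the same numbers of calls.

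**Figure D4:**
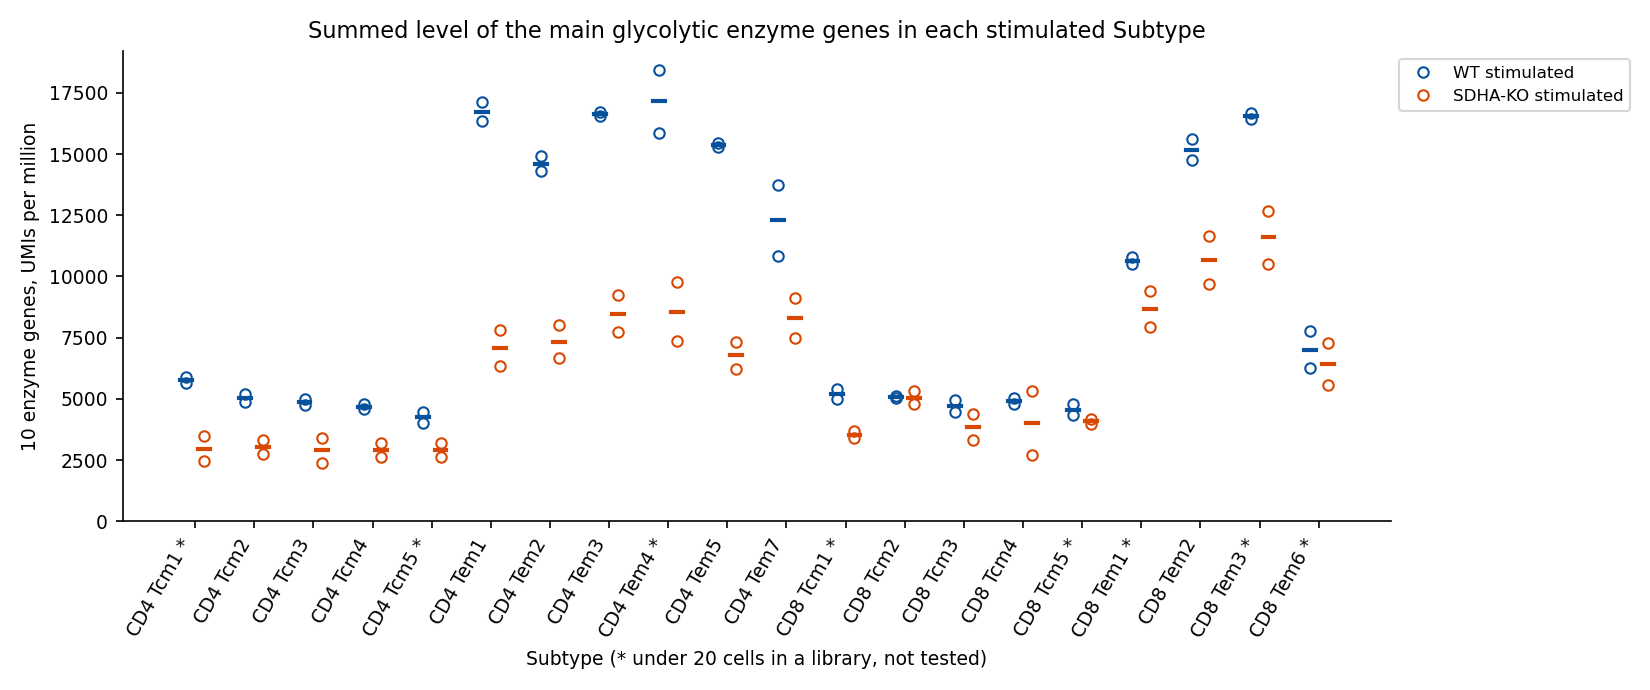
Summed level of the 10 enzymes, in CPM of the plain UMI total, in each stimulated Subtype, with a point per library for WT and SDHA-KO. Subtypes with fewer than 20 cells in any of the 4 libraries are starred and were not tested. Log2 fold changes of SDHA-KO against WT are not drawn. In the CD4 Subtypes tested these were below 0 for all members, with medians from -1.52 (Tem1) to -0.56 (Tem7). In the CD8 Subtypes tested the medians ran from -0.56 (Tem2) to -0.16 (Tcm2).

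In unstimulated Subtypes 7 calls were made over 11 Subtypes tested, all of them higher in SDHA-KO. Tpi1 was called in CD4 Naive2 (0.91 ± 0.23, SE, with 0.733% of all genes called higher) and CD8 Naive2 (1.16 ± 0.30, SE, with 0.468%). Tpi1 levels in CD4 Naive2 were 15.4 and 16.1 CPM in WT and 34.1 and 29.2 in SDHA-KO. Eno1 was called in CD4 Naive4 (0.55, 0.511%), and in CD8 Naive1 (0.54, 0.397%), Naive2 (0.44), and Naive3 (0.87, 0.237%). In CD8 Naive3 the Eno1 levels were 100.1 and 74.0 CPM in WT and 163 and 164 in SDHA-KO. Ldha was called in CD4 Tem1 (0.43, 3.78%), the one unstimulated Subtype in which Hk2 had enough UMIs to be tested. The 7 calls became 0 without unstimulated WT replicate 2, 3 without unstimulated SDHA-KO replicate 2, 1 with DESeq2, and 13 with library totals in place of TMM.

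Around the 10 members, the lists of other genes of glucose metabolism changed in both directions after stimulation in SDHA-KO against WT. Of the minor isozymes and the missing mutase step (17 listed, 10 tested), 7 were lower and 2 higher in CD4 cells, and 6 lower and 2 higher in CD8 cells. Ldhb, the lactate dehydrogenase subunit found in oxidative tissue, rose by 1.36 in CD4 and 1.17 in CD8 cells. Over all cells Ldha was lower in CD4 cells and was not called in CD8 cells. Aldoc, aldolase C, was lower at -3.09 in CD4 and -3.68 in CD8 cells. Of the glucose and lactate transport genes (7 tested), 5 were lower and none higher in each class, led by the high-affinity glucose transporter Slc2a3 (-3.19 in CD4 and -2.43 in CD8).

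Of the regulators and side branches of glycolysis (13 tested), 5 were lower and 3 higher in CD4 and 4 lower and 5 higher in CD8 cells. Tigar, a phosphatase that lowers fructose 2,6-bisphosphate, rose by 0.95 in CD4 and 1.17 in CD8 cells, and Gbe1, the glycogen branching enzyme, fell by 2.85 and 2.86. Of genes for pyruvate entry to mitochondria (12 tested), 4 were lower and 4 higher in CD4 and 2 lower and 5 higher in CD8 cells. Mpc2, a subunit of the pyruvate carrier, rose by 0.80 and 0.66, and Pdk1, which inhibits pyruvate dehydrogenase, fell by 1.45 and 1.54.

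Of hypoxia-response genes outside glycolysis, 15 of 21 tested were lower and 3 higher in CD4 cells, and 16 of 20 lower and 1 higher in CD8 cells. Selenbp1 fell most, by 4.23 and 3.53, while Hif1a itself rose by 0.72 in CD4 cells and was at 0.06 in CD8 cells. Egln2, a prolyl hydroxylase, rose by 0.57 in CD8 cells. Of Myc and its partners (8 tested), 3 were higher and 2 lower in CD4 cells, where Mxd3 rose by 0.78 and Mnt fell by 0.48, and 2 were higher and none lower in CD8 cells, Mlx by 0.73 and Myc by 0.49. The share of all genes tested was 20.5% lower and 22.7% higher in CD4 cells and 23.5% lower and 26.8% higher in CD8 cells.

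The members varied together over the 16 CD4 and CD8 sums. Among 5718 non-member genes averaging 20 CPM or more, those whose log2 level was most like the mean of the members were Hist1h3c (Pearson r = 0.996), Asns (0.993), Bsg (0.993), Pgp (0.993), and Slc16a3 (0.993). Bsg is the chaperone of the lactate transporters, Slc16a3 encodes one of these transporters, Asns makes asparagine, and Pgp encodes phosphoglycolate phosphatase. These values are a description, since the sums share libraries and the large step between unstimulated and stimulated cells dominates them.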

How the data were processed

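Single-cell 3′ libraries were prepared by the authors with 10x Genomics HT chemistry and sequenced on a NovaSeq. Per the submitters' processing notes, bcl2fastq and Cell Ranger were used with mm10, and the versions are not given in the sources used here. In Seurat the authors dropped cells with very many detected genes as well as clusters lacking CD3 transcripts, and they deposited the matrix as raw UMI counts. Their deposited cell table lists the library, the CD4 or CD8 class, the Subtype, and the percent of UMIs on 13 mitochondrially encoded genes, also computed by the authors. The class rests on the authors' ratio of Cd4 to Cd8a, deposited on a log10 scale. UMI totals, gene numbers, and mitochondrial percents of all 12846 cells were checked against the matrix, and 0 differed (tolerance of 0.001 percentage points for the percents). No doublet caller was run here.

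Groups and replicate numbers came from the labels, and the cell table's library codes nt and tr were read as unstimulated and stimulated. UMIs were summed per library and class or Subtype, because cells of 1 library are not replicates. The study tested single cells. Genes were filtered with filterByExpr (minimum count 10, minimum total 15), scaled with TMM, and tested with glmQLFit and glmQLFTest of edgeR 4.0.16 in R 4.3.3, in 1 fit of 4 groups and 8 libraries per class. Adjusted p-values (Benjamini-Hochberg over all genes tested) under 0.05 were called, and TMM-scaled CPM are printed per library, with marker and Subtype levels as plain CPM. edgeR's test gives no standard error, so each SE is the absolute log2 fold change divided by the square root of the F statistic. CD4 and CD8 sums of stimulated libraries were compared with the library as a block, and Subtypes with at least 20 cells in each of 4 libraries were fitted within a state. Sums held 3640136 to 34087903 UMIs, and the spread between replicates in the fits was 8.73% in CD4 and 8.24% in CD8 cells. Replicates of each group differed by more than counting noise (chi-square over its degrees of freedom, 1.54 to 13.6). CPM of different genes are not compared as molar amounts.

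The scripts were tested on simulated data. The members and the gene lists were chosen with earlier results of these data known. All members were named in each comparison, and from the other lists the called genes with the largest rise and fall in stimulated cells, with Myc, Cd4, and Igkc added after their values were seen. The values of 1 gene that this rule would name are not reported here. Alternatives were DESeq2 1.42.0, limma 3.58.1 on log2 of mean CPM per cell plus 1, no TMM, no filter, no mitochondrial genes, low percent.mt, strict classes, only the libraries compared, a replicate block, and leaving out each library, where the lone library of a group is assumed to vary like the others. Strict classes together with low percent.mt were added after the data were seen.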

Additional observations from a re-analysis of the deposited data

Results flagged for a closer look

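In 24 cases the effect of SDHA-KO on a member differed between states or between classes by edgeR's test of the difference (adjusted p under 0.05 over all genes tested), and these are given as values. In CD4 cells the effect was lower in stimulated than in unstimulated cells by log2 differences of -0.76 (Gpi1), -1.38 (Pfkp), -0.90 (Aldoa), -1.33 (Tpi1), -1.05 (Gapdh), -1.49 (Pgk1), -1.80 (Eno1), -0.85 (Pkm), and -0.65 (Ldha). In CD8 cells the same difference was -1.27 (Hk2), -0.50 (Gpi1), -1.04 (Pfkp), -1.04 (Tpi1), -0.75 (Pgk1), and -1.05 (Eno1). In stimulated cells the effect in CD8 cells minus that in CD4 cells was 0.75 (Hk2), 0.31 (Pfkp), 0.48 (Aldoa), 0.28 (Tpi1), 0.61 (Gapdh), 0.63 (Pgk1), 0.74 (Eno1), 0.47 (Pkm), and 0.48 (Ldha). Of all genes tested, 10.5% were called lower in the difference between states in CD4 cells and 10.2% in CD8 cells. In the CD8 minus CD4 difference 11.9% of all genes were called higher. There, in strict cells, Pfkp (0.07), Aldoa (0.26), Tpi1 (0.13), and Pkm (0.21) were not called. With 2 libraries per group, single libraries were not screened for outlying values.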

How the results depend on the processing

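Of 2020 values of single members under alternatives, 1862 kept direction and call, 43 became called, 82 lost the call, and 33 changed sign. Replicate numbers only name libraries: deviations of libraries with the same number correlated at -0.078 to 0.048, and a replicate block moved 1 call, Hk2 in the CD4 difference between states (adjusted p = 0.0479), for 10 members there. No TMM shifted the median of all genes by up to 0.57 (WT stimulation, CD8). Where counts of members called moved by over 1.5 times, the cause was not tested except where cells or libraries were fewer by construction. The unstimulated comparison of SDHA-KO with WT went from 0 in CD4 to 2 (DESeq2, no filter, only the 4 libraries) or 1 (no TMM, strict, limma) and over left-out libraries 0 to 1, and from 0 in CD8 to 1 (DESeq2, strict with low percent.mt) or 2 (limma, only the 4 libraries). The stimulated CD8 count of 9 was 5 with limma and 5 to 9 over left-out libraries. The CD8 difference between states (6) was 10 in strict cells with low percent.mt and 2 to 8 over left-out libraries. The difference of CD8 and CD4 effects (9) was 5 with strict classes, with or without low percent.mt. The WT comparison of CD8 and CD4 (9) was 3 with low percent.mt, 2 with strict classes as well, and 3 to 9 over left-out libraries. Calls in stimulated Subtypes (88) were 48 with low percent.mt, where 5 Subtypes could be fitted, and those in unstimulated Subtypes (7) were 1 with DESeq2, 13 without TMM, and 0 to 5 over left-out libraries.

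Changes of sign were as follows. Over left-out libraries the unstimulated CD4 values ranged from -0.59 to 0.26 (Hk2), -0.023 to 0.11 (Gpi1), and -0.059 to 0.19 (Pfkp), and the unstimulated CD8 values from -0.047 to 0.071 (Gpi1), -0.022 to 0.17 (Pfkp), -0.058 to 0.044 (Aldoa), -0.012 to 0.084 (Pgk1), and -0.011 to 0.15 (Pkm). Unstimulated CD8 Gpi1 was also positive with DESeq2 (0.0071), no TMM (0.13), no filter (0.0051), low percent.mt (0.0064), strict classes (0.024), limma (0.13), strict with low percent.mt (0.033), and only the 4 libraries (0.0076), and Aldoa with no TMM (0.11), strict classes (0.014), limma (0.082), and strict with low percent.mt (0.023). Ldha in stimulated CD8 cells was at -0.025 (no TMM), -0.39 (low percent.mt), -0.12 (strict), and -0.58 (both), and ranged from -0.073 to 0.12 over left-out libraries, while its CD8 difference between states ranged from -0.15 to 0.043. Gpi1 was at -0.081 with limma for the CD8 minus CD4 effect, and Eno1 at 0.00065 with low percent.mt for WT CD8 against CD4. Low UMI counts of Hk2 before stimulation limit its unstimulated comparisons.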
